A study of Mus musculus with 20 samples.

Results

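The intercalated disc is the junction at which neighbouring heart muscle cells are joined end to end. The 9 genes described here encode its gap junction channels, its classical cadherin and its desmosome. They are the connexin genes Gja1, Gja5 and Gjc1, the N-cadherin gene Cdh2, and the desmosome genes Dsp, Jup, Pkp2, Dsg2 and Dsc2. Rows were taken by gene symbol alone, by a rule that uses no measured value, although the genes were chosen with earlier results of these data known. All 9 were found among the 26440 genes of the deposited table. All 9 also passed the filter on low values that left 18125 genes for testing. Messenger RNA was measured in 20 libraries from C57BL/6N mice. Whole hearts were taken at the embryonic stage E13.5 from 4 wild-type embryos and 4 embryos labelled MyHC-Creld1 KO, and atria and ventricles were taken separately at postnatal day 3 (P3) from 3 wild-type and 3 MyHC-Creld1 KO pups. The series describes the knockout as specific to the myocardium, so that fibroblasts, endothelial cells and other heart cells of the knockouts keep Creld1. The labels give neither the myosin gene of the driver nor the deleted exons, and no allele or agent is named for the wild-type animals. The comparisons ask how the transcripts of the disc differ between knockout and wild-type, between the chambers and between the stages.

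Gap junction channels are built from connexin proteins and let ions pass between muscle cells, so that the action potential spreads through the heart. Connexin 43, the product of Gja1, is known as the main channel of the working ventricle. Connexin 40, the product of Gja5, is known from the atria, the His-Purkinje fibres and arterial endothelium, and connexin 45, the product of Gjc1, from the early heart tube and the nodes. N-cadherin holds the membranes of adjoining muscle cells together and is coupled to actin through catenins. In the desmosome, the cadherins desmoglein 2 and desmocollin 2 span the membrane, plakoglobin and plakophilin 2 bind their tails, and desmoplakin ties the complex to desmin filaments. Inherited defects of desmosome genes are a known cause of arrhythmogenic cardiomyopathy.

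Several libraries stood apart or went against their labels, and some of the results that rest on them are given with and without them. In the third atrial pair, wild-type and knockout replicate 3, mitochondrial transcripts made up 10.4% and 3.55% of the signal, against 22.6 to 31.3% in the other 4 atrial libraries. Both libraries of this pair were far below the other atrial libraries for Gja1, by a mean of -3.52 on the log2 scale, and above them for Jup, by 2.19. Across 4189 genes the offset of this pair went with the GC content of the longest transcript, with a Spearman correlation of 0.544, given as a description because genes are not independent. Its median was -1.14 in the fifth of genes with the lowest GC content and 0.61 in the fifth with the highest, and Gja1 has a GC content of 42.2% and Jup one of 58.8%. The atrial library of wild-type pup 2 had a signal of 9242 for Myl2, the ventricular light chain gene, against 21.7 to 97.2 in the other atrial libraries. Sex-linked transcripts did not match between the libraries labelled as its atria and ventricles: Xist was 2876 and 74.9, and the Y-linked Eif2s3y was 1.65 and 2427. Creld1 was not lower than in the wild-type library of the same number in the library labelled E13.5 knockout replicate 1 (70.9 against 66.0) or in the library labelled atrial knockout replicate 2 (26.6 against 21.6). In the library labelled ventricular knockout replicate 2 it was 59.3 against 59.7. These 3 libraries are called the doubted knockout libraries, by this comparison alone. In atria, knockout replicates 1 and 3 had 23.1 and 82.4, against 105 and 146 in wild-type replicates 1 and 3. There the atrial wild-type replicate 2, rather than its knockout partner, thus stood apart from its group. The Creld1 values rest on an estimated 3.25 to 149 reads per library. Creld1 averaged 63.2 ± 23.8 (SD, n = 4) in E13.5 hearts labelled wild-type, against 30.3 ± 31.0 (SD, n = 4) in those labelled knockout. Wild-type and knockout atria had 91.0 ± 63.5 (SD, n = 3) and 44.1 ± 33.3 (SD, n = 3), and the ventricles 83.8 ± 39.7 (SD, n = 3) and 43.7 ± 20.9 (SD, n = 3). Every direction given for the knockout rests on these labels. The chamber differences given for wild-type pup 2 rest on its labels too, although its libraries did not match in sex-linked transcripts. The cardiomyocyte markers, 10 of 10 above 0 in every library, had summed signals of 124395 to 165636 at E13.5, 127960 to 216180 in atria and 243483 to 292916 in ventricles.

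Gja1 was the most abundant member in every group. Per kilobase of exon, the scale on which levels of different genes are compared here, its mean ranked between 58 and 123 of 26386 genes in the 6 groups. The next members, Cdh2 and Dsp, ranked between 906 and 1858. Its position is chromosome 10, 56377330 to 56402513, plus strand, in GRCm38, the assembly also called mm10. The normalized signal of Gja1 at E13.5 was 19936, 62182, 49384 and 39219 across wild-type replicates 1 to 4, and 28178, 43063, 37409 and 53305 across knockout replicates 1 to 4. Wild-type atria at P3 gave 56362, 70144 and 5168, and knockout atria 40600, 61871 and 4650, so that the third pair lay far below the rest in both genotypes. Wild-type ventricles gave 76875, 101772 and 91199, and knockout ventricles 77819, 93890 and 99329, and all 6 ventricular libraries lay above the other 14. In RNA of whole tissue, fewer cells of a type and less RNA per cell cannot be told apart.

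The ventricle minus atrium difference of Gja1 within a pup was 0.45, 0.54 and 4.14 on the log2 scale in wild-type pups 1 to 3, and 0.94, 0.60 and 4.42 in knockout pups 1 to 3. All 6 pups thus had more Gja1 in the ventricles, and the third pup of each genotype stood far above the others. The limma estimates were 1.71 (SE 1.01) in wild-type and 1.99 (SE 1.01) in knockout pups, both short of the threshold (adjusted p = 0.622 and 0.603). Without the third atrial pair they were 0.49 and 0.77 (adjusted p = 0.279 and 0.149). Wild-type ventricles exceeded wild-type E13.5 hearts by 1.18 (SE 0.77), again short of the threshold (limma adjusted p = 0.481). That difference passed once the third atrial pair, which shares in the estimate of the spread, was left out (adjusted p = 0.0109). Knockout minus wild-type was 0.00 (95% interval -1.48 to 1.49) at E13.5, -0.27 (-1.98 to 1.44) in atria and 0.01 (-1.71 to 1.72) in ventricles. The spread of the third atrial pair enters all 3 intervals. Without that pair the intervals of Gja1 were -0.55 to 0.55 at E13.5, -1.11 to 0.45 in atria and -0.63 to 0.64 in ventricles. With the replicate block, which compares same-numbered libraries, they were -0.35 to 0.35, -0.67 to 0.14 and -0.40 to 0.41. That fit shares its spread over the pairs of all 3 settings. The pair differences were 0.50, -0.53, -0.40 and 0.44 at E13.5, -0.47, -0.18 and -0.15 in atria, and 0.02, -0.12 and 0.12 in ventricles. The E13.5 pairs thus scattered more than the pooled interval shows.

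Gja5 (chromosome 3, 96904693 to 97077416, plus strand) had the largest estimated chamber difference of the 9 genes in both genotypes. Its normalized signal in P3 atria was 898, 559 and 1343 for wild-type pups, and 531, 299 and 479 for knockout pups. Wild-type ventricles had only 36.6, 118 and 33.8, and knockout ventricles 101, 45.5 and 20.3. All 6 atrial libraries therefore lay above all 6 ventricular libraries. Whole hearts at E13.5 had 229, 143, 465 and 282 in wild-type animals and 340, 316, 295 and 327 in knockouts, and the wild-type values all lay between those of the wild-type ventricles and atria. The ventricular values rest on an estimated 15.6 to 104 reads per library and the atrial ones on at least 253. An exon of Gpr89 on the opposite strand shares 165 bases with Gja5, and whether the counting used strand is not given in the sources used here, so that their reads may not be told apart there.

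Within wild-type pups 1 to 3, Gja5 was 24.6, 4.73 and 39.7 times as high in the atria as in the ventricles. In knockout pups 1 to 3 it was 5.29, 6.58 and 23.6 times as high. On the log2 scale the ventricle minus atrium estimate was -4.03 (SE 0.64, 95% interval -5.49 to -2.57) in wild-type and -3.19 (SE 0.64, 95% interval -4.65 to -1.73) in knockout pups. Neither passed limma's test within pups (adjusted p = 0.0670 and 0.136), in which no member was called in either genotype. That fit spends a term on each pup and called 0.0883% of the 18125 genes in wild-type and 0.199% in knockout pups. In the 6-group fit of all 20 libraries both differences passed (limma adjusted p = 0.000295 in wild-type and 0.00243 in knockout). That fit has no pup terms, treats the 2 tissues of a pup as independent and has 14 residual degrees of freedom in place of 4. The wild-type estimate was -4.93 without wild-type pup 2, whose libraries did not match in sex-linked transcripts. Leaving out the third atrial pair gave -3.41 and -2.54. The difference between the genotypes in this chamber contrast was 0.84 (95% interval -1.23 to 2.90), which did not pass (adjusted p = 1).

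The connexin promoters are shown because Gja5 and Gja1 had opposite chamber patterns at P3. RefSeq promoter entries on GRCm38.p6 were found for 4 of the 9 members, Gja1, Gja5, Dsp and Jup. The 250 bases before the annotated start are chr10:56377050-56377299 for Gja1 and chr3:97032152-97032401 for Gja5, both on the plus strand. The Gja5 window precedes the RefSeq start and lies inside the longer GENCODE gene span given above, whose first annotated base is farther upstream. Capitals mark the matches described after them.
Gja1: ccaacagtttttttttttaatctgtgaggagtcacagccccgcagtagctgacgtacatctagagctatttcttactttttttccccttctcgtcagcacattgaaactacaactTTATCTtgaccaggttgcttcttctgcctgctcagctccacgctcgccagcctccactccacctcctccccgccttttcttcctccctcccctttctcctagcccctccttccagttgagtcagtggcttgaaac
Gja5: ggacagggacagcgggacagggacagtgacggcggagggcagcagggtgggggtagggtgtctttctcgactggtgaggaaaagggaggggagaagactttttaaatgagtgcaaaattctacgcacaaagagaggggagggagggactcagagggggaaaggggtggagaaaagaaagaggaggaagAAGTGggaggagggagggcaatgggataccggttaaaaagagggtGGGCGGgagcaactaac
Each motif was searched on both strands, and none of the motifs overlaps another. The Gja1 window holds 1 match to the GATA factor core AGATAA, read on the minus strand, which 9.99% of 32851 RefSeq promoter windows of this length contain. The Gja5 window holds 1 match to the Nkx2-5 core AAGTG, found in 40.7% of windows, and 1 to the Sp1 box GGGCGG, found in 32.7%. The T-box core GTGTGA, found in 12.3% of windows, does not occur in these letters in any of the 4 members. A match describes the sequence and is not evidence of a bound site.

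Gja5 was also the 1 member called between the stages. In wild-type animals it fell from E13.5 hearts to P3 ventricles, with a log2 fold change of -2.26 (SE 0.51, 95% interval -3.31 to -1.20) (limma adjusted p = 0.00986). The contrast called 5.09% of all genes and 1.74% in the lower direction. Every wild-type ventricular library lay below every wild-type E13.5 library, the closest values being 118 and 143. The call was lost without ventricular wild-type replicate 1 or replicate 3. From E13.5 hearts to P3 atria, Gja5 rose by a log2 fold change of 1.77 (SE 0.51, limma adjusted p = 0.0440), where 5.5% of genes were called and 3.11% in the higher direction. This call lay close to the threshold and was lost in several alternatives. Without the third atrial pair the value was 1.46 (adjusted p = 0.157). Both contrasts share the wild-type E13.5 hearts. Those hearts hold atria and ventricles together, so that stage and dissection cannot be told apart.

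**Figure D1:**
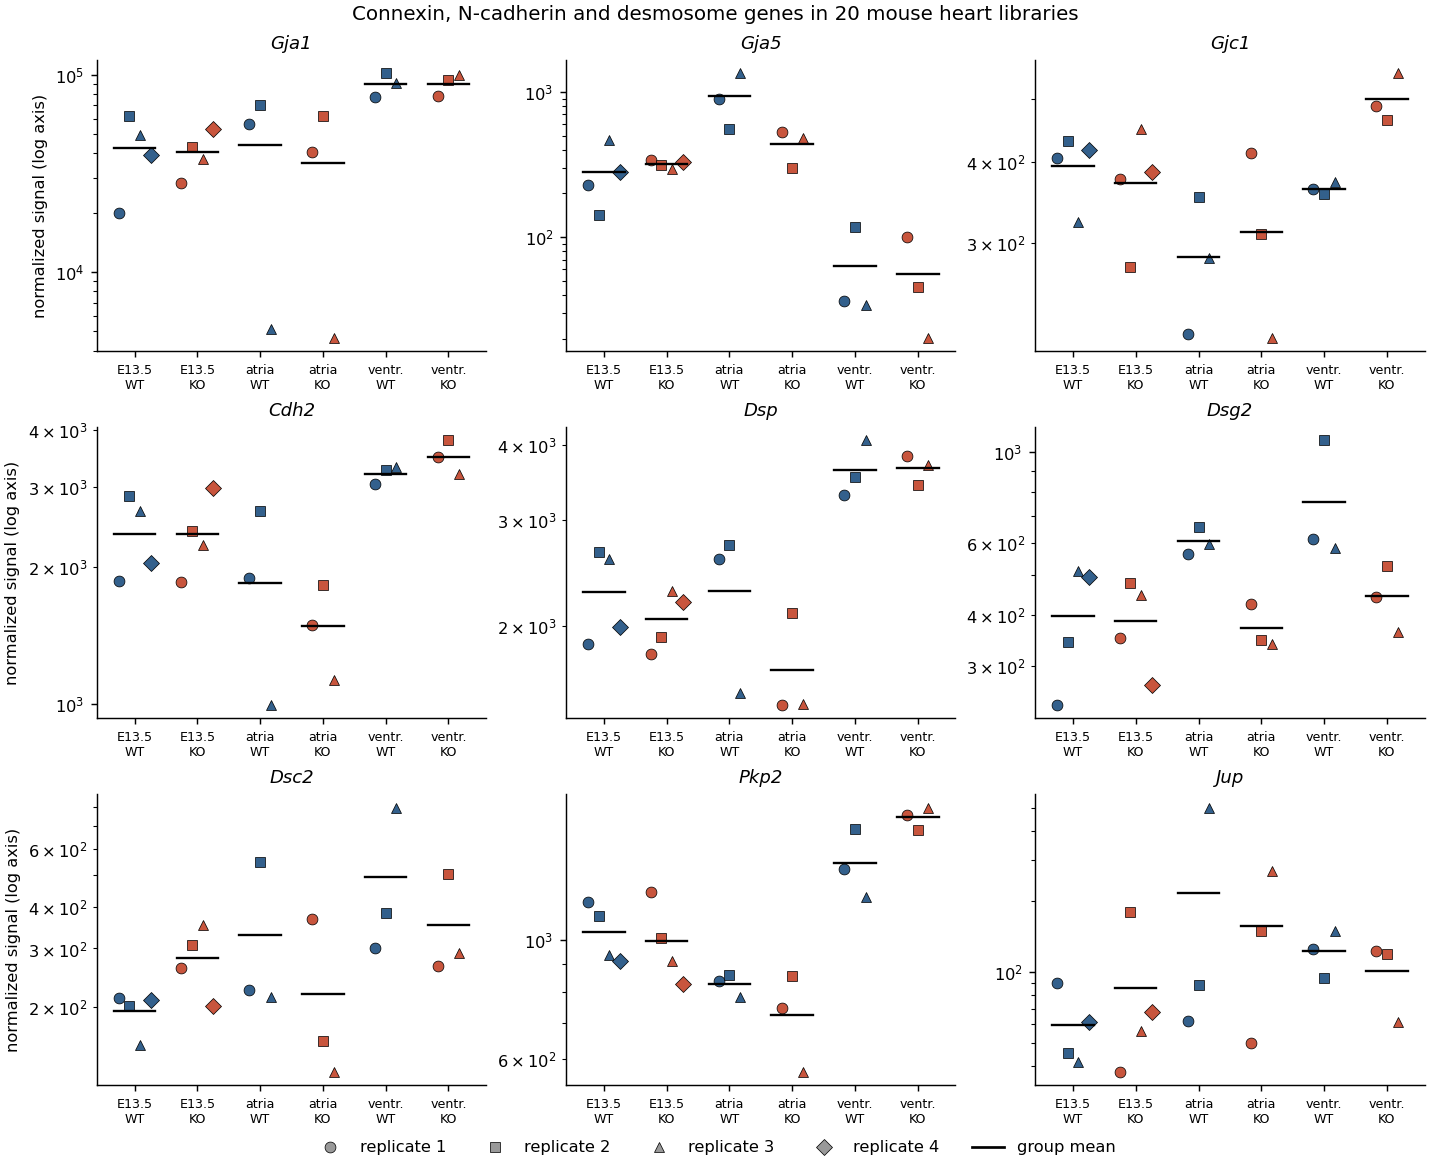
Normalized signal of the 9 genes on log axes by group, with blue for wild-type (WT), red for knockout (KO), a symbol for each replicate number and a bar at the group mean. Gja5 is highest in atria and lowest in ventricles, the other connexins, Cdh2, Dsp and Pkp2 have their highest group mean in ventricles, and the third atrial pair (triangles) is low for Gja1 and high for Jup.

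In atria the knockout libraries had less Gja5 in all 3 pairs, without overlap: 531 was the highest knockout and 559 the lowest wild-type value. The log2 fold change was -1.05 (SE 0.54, 95% interval -2.17 to 0.08), which did not pass limma's test (unadjusted p = 0.0669, adjusted p = 0.963). It was -0.83 without the third pair, -1.37 without wild-type pup 2, whose atrial library carried ventricular transcripts, and -0.80 without the doubted knockout libraries. With the replicate block the 95% interval was wholly negative, at -2.04 to -0.05, but the difference did not pass (limma adjusted p = 0.537). Without the third pair the interval was -2.21 to 0.56. Several marker lists and the mitochondrial share moved with genotype in the same atria. The summed signal of 9 fibroblast markers, 9 of 9 above 0 in every atrial library, was 79308 to 85444 in wild-type, against 59278 to 62406 in knockout. That of 7 blood markers, 6 of them above 0 in all wild-type and 7 in all knockout libraries, was 7831 to 9191, against 14819 to 60030. The mitochondrial share was 31.3, 31.3 and 10.4% in wild-type atria and lower in each paired knockout library, at 22.6, 24.2 and 3.55%. The sums of 7 conduction system markers, where Gja5 is also known to be expressed, overlapped between the genotypes but were lower in knockout in each pair. They were 746, 327 and 1377 in wild-type, against 172, 208 and 382 in knockout, with 5 of 7 above 0 in all libraries of each group. By limma 0 of 6 tested genes were called and 3 had an unadjusted p under 0.05, beside 5.32% of all genes. The sums of 7 smooth muscle and pericyte markers overlapped too but were higher in knockout in each pair. They were 1622.5, 3439 and 6338 in wild-type, against 5490, 5748 and 11945.5 in knockout. The 8 atrial markers, 8 of 8 above 0 in all 6 libraries, summed to 72830 to 163865 and 142588 to 438059. The part of these in the result was not tested. Gja5 did not differ between genotypes in ventricles (-0.21, 95% interval -1.34 to 0.92) or at E13.5 (0.32, -0.66 to 1.29) beyond the spread between libraries. The atrial effect differed from the E13.5 effect by -1.36 (95% interval -2.85 to 0.13), which did not pass (limma adjusted p = 0.999).

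Gjc1 (chromosome 11, 102799579 to 102819700, minus strand) varied least of the connexins. Wild-type E13.5 hearts had signals of 405, 431, 323 and 417, and knockout hearts 376, 275, 449 and 386. Wild-type atria had 217, 354 and 284, and knockout atria 412, 310 and 214. Wild-type ventricles had 363, 357 and 372, an SD of only 7.74, and knockout ventricles 488, 463 and 547, so that the genotypes did not overlap there and knockout was higher in 3 of 3 pairs. The ventricular log2 fold change was 0.45 (SE 0.29, 95% interval -0.15 to 1.05), which did not pass limma's test (unadjusted p = 0.131, adjusted p = 1). Gjc1 was higher in ventricles than in atria in all 6 pups, by 0.38 (SE 0.34) in wild-type and 0.72 (SE 0.34) in knockout, neither of which passed (adjusted p = 0.751 and 0.576). Leaving out atrial wild-type replicate 2 gave 0.56 in wild-type.

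The connexin make-up of each library was computed per kilobase of exon, with the exons of all annotated transcripts joined, as the share of Gja1, Gja5 and Gjc1 in their sum. In E13.5 hearts Gja1 held 94.1 to 98.2% in wild-type and 95.3 to 97.5% in knockout. It held 98.5 to 99.1% in the 6 ventricular libraries. In atria it held 95.8 to 98.2% in the first and second pairs, but 63.4% in wild-type and 78.2% in knockout replicate 3. Gja5 made up 0.403 to 2.05% at E13.5 and 0.0361 to 0.227% in ventricles. In atria Gja5 made up 0.847 to 2.75% in the first and second pairs, and 29.4% and 14.4% in the third. The Gja1 share therefore was above 94% in 18 of 20 libraries and lower in the 2 libraries of the third atrial pair. Gjc1 exceeded Gja5 per kilobase in all 6 ventricular libraries. The shares were not adjusted for GC content, which is 42.2% for Gja1, 52.8% for Gja5 and 45.6% for Gjc1. Its part in the shares was not tested.

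**Figure D2:**
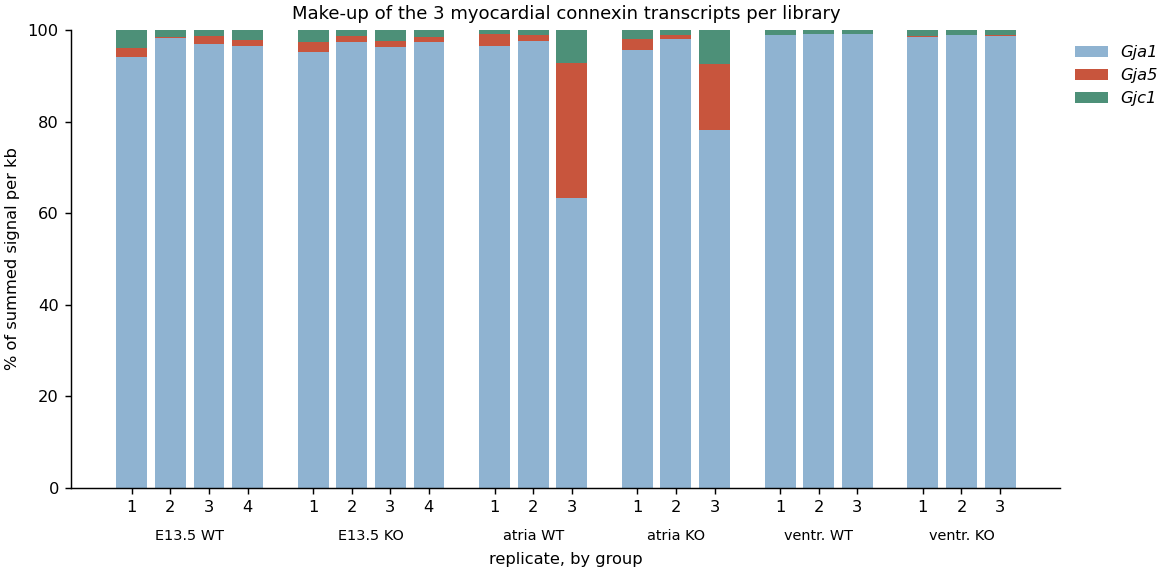
Stacked bars give the percentage of Gja1, Gja5 and Gjc1 in their summed signal per kilobase of exon for each of the 20 libraries, by group and replicate. Gja1 fills nearly the whole bar except in replicate 3 of the wild-type and knockout atria, where it holds 63.4% and 78.2%.

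Cdh2, the gene of the classical cadherin known from the disc, was highest in the ventricles. Its position is chromosome 18, 16588877 to 16809246, minus strand. At E13.5 its signal was 1867, 2871, 2655 and 2045 in wild-type, against 1852, 2402, 2232 and 2985 in knockout hearts, with means of 2359 ± 480 (SD, n = 4) and 2368 ± 471 (SD, n = 4) that were nearly equal. Wild-type atria had 1895, 2652 and 996, and knockout atria 1489, 1826 and 1131. The ventricles had 3049, 3260 and 3319 without the knockout and 3483, 3796 and 3197 with it, above every library of the other groups. Within pups the ventricle minus atrium estimate was 0.91 (SE 0.35) in wild-type and 1.26 (SE 0.35) in knockout, both in 3 of 3 pups and neither past limma's threshold (adjusted p = 0.458 and 0.285). Without the third atrial pair they were 0.49 and 1.14. Leaving out atrial wild-type replicate 2 gave 1.21 in wild-type. Scaling each library to the same sum lowered the median ventricle minus atrium difference of all genes by -0.579 in wild-type and -0.534 in knockout pups. Cdh2 stayed higher in ventricles on that scale, by 0.31 and 0.70. No genotype difference of Cdh2 passed the test, the estimates being 0.01 at E13.5 (95% interval -0.54 to 0.56), -0.23 in atria (-0.87 to 0.40) and 0.12 in ventricles (-0.52 to 0.75).

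The desmosome genes were present at very different levels. Per kilobase of exon, wild-type ventricles had means of 377 ± 40.6 (SD, n = 3) for Dsp, 259 ± 38.2 (SD, n = 3) for Pkp2, 93.6 ± 50.5 (SD, n = 3) for Dsc2, 91.3 ± 33.0 (SD, n = 3) for Dsg2 and 19.1 ± 4.30 (SD, n = 3) for Jup. All libraries of Dsp and Pkp2 lay above those of Dsc2, Dsg2 and Jup there, while Dsg2 and Dsc2 overlapped. Jup, which encodes plakoglobin, shared by desmosomes and adherens junctions, thus had the lowest level of the desmosome members in that group. Levels per kilobase were not adjusted for GC content, which is 58.8% for Jup and 42.5% for Dsc2. The part of GC content and of the joined exon lengths in this order was not tested.

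Dsp, the desmoplakin gene (chromosome 13, 38151294 to 38198577, plus strand), had signals of 1864, 2653, 2581 and 1990 in wild-type, against 1797, 1918, 2289 and 2191 in knockout E13.5 hearts. The atrial signal was 2585, 2729 and 1544 for wild-type and 1476, 2098 and 1480 for knockout pups, and the ventricular signal 3309, 3543 and 4074 for wild-type and 3842, 3439 and 3708 for knockout pups. As with Cdh2, each ventricular library lay above each library of the other groups. The within-pup difference of Dsp was 0.71 (SE 0.34) in wild-type and 1.14 (SE 0.34) in knockout pups, present in all 6 pups and short of limma's threshold (adjusted p = 0.534 and 0.328). Without the third atrial pair the values were 0.37 and 1.05 (adjusted p = 0.539 and 0.168). From wild-type E13.5 hearts to ventricles it was 0.69 (SE 0.24, adjusted p = 0.104), and without the third atrial pair that difference passed (adjusted p = 0.0105). The knockout was lower in 3 of 3 atrial pairs, with a log2 fold change of -0.42 (SE 0.25, limma adjusted p = 1), and differed by -0.14 at E13.5 and 0.01 in ventricles. Without the third atrial pair the atrial value was -0.59 (95% interval -1.05 to -0.14). With the replicate block the atrial interval was -0.80 to -0.03. Both intervals were wholly negative, but neither difference passed limma's adjusted test.

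Pkp2, the plakophilin 2 gene (chromosome 16, 16213318 to 16272712, plus strand), was 1176, 1108, 935 and 913 in wild-type, against 1230, 1009, 914 and 828 in knockout E13.5 hearts. Wild-type atria had 837, 861 and 783, knockout atria 747, 854 and 568. It reached 1357, 1609 and 1204 in wild-type ventricles and 1711, 1603 and 1763 in knockout ventricles. Ventricles exceeded atria in all 6 pups without overlap. The estimate was 0.74 (SE 0.29, limma adjusted p = 0.461) in wild-type and 1.25 (SE 0.29, adjusted p = 0.194) in knockout pups, and 0.80 and 1.05 without the third atrial pair. Leaving out atrial wild-type replicate 2 gave 0.66 in wild-type. The genotype differences of Pkp2 were -0.06, -0.21 and 0.29 at E13.5, in atria and in ventricles, each with a limma adjusted p of 1.

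**Figure D3:**
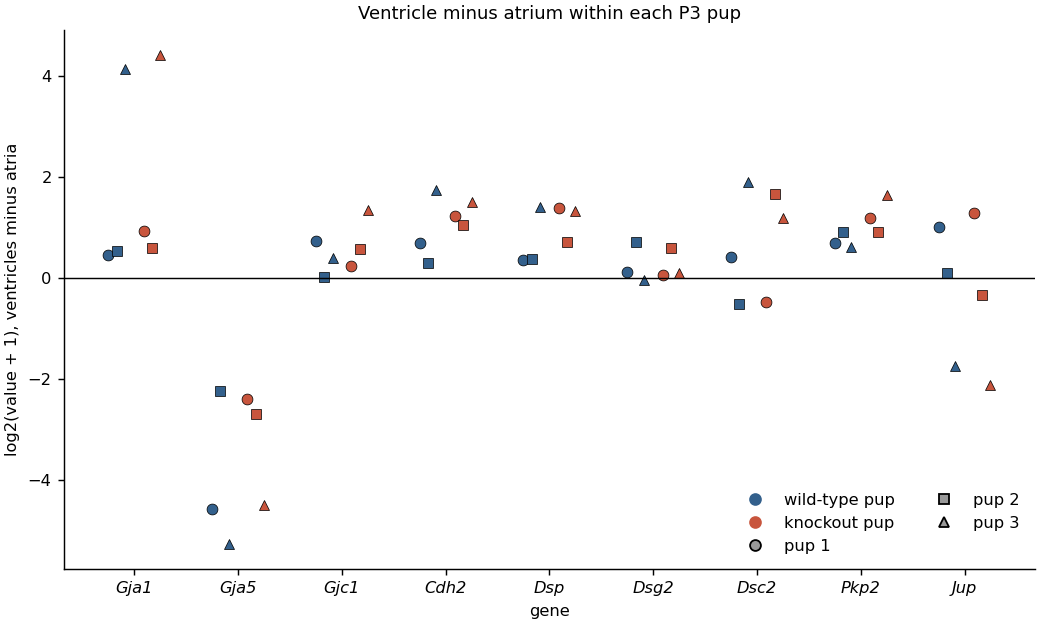
Ventricle minus atrium difference of log2(value + 1) for the 9 genes within each of the 6 P3 pups, blue for wild-type and red for knockout, with a symbol for each pup number. Gja5 is below 0 in all 6 pups, Gja1, Gjc1, Cdh2, Dsp and Pkp2 are above 0 in all 6, and pup 3 (triangles) stands apart for Gja1 and Jup.

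Dsg2, which encodes the desmoglein of heart muscle (chromosome 18, 20558074 to 20604521, plus strand), was lower in knockout in all 6 postnatal pairs. Atria had signals of 565, 657 and 597 in wild-type pups, and 425, 348 and 340 in knockout pups. Ventricles had 614, 1070 and 582 in wild-type pups, and 443, 527 and 364 in knockout pups, so that the genotypes did not overlap in either chamber. At E13.5 it was 241, 344, 514 and 495 in wild-type, against 352, 478, 447 and 269 in knockout hearts, with full overlap. The log2 fold change was -0.71 (SE 0.32, 95% interval -1.39 to -0.04) in atria and -0.72 (SE 0.32, -1.40 to -0.05) in ventricles. Neither passed limma's test over all genes (unadjusted p = 0.0400 and 0.0375, adjusted p = 0.907 and 1), and the E13.5 value was -0.02 (-0.60 to 0.57). The atrial value was -0.66 (95% interval -1.47 to 0.14) without the third pair and -0.65 without wild-type pup 2. With the replicate block the intervals were -1.32 to -0.10 in atria and -1.33 to -0.12 in ventricles (limma adjusted p = 0.460 and 0.759). The ventricular value was -0.44 without wild-type pup 2, which had the highest signal of all 20 libraries, and -0.85 without the doubted knockout libraries. The 2 tissues come from the same labelled pups and are not independent repeats. The fibroblast and blood marker sums that separated the genotypes in atria, given with Gja5, stand beside the atrial Dsg2 difference as well. So does the atrial mitochondrial share, which overlapped between the genotypes but was lower in each paired knockout library. In ventricles the fibroblast sums were 49429 to 53997 in wild-type, against 50971 to 65479 in knockout, and the blood sums 5237 to 13815, against 8774 to 15124. Both overlapped there, while the mitochondrial share was 39.9, 41.3 and 38.5%, against 36.5, 37.3 and 36.3%. The ventricular sums of 8 endothelial markers did not overlap, at 3372 to 3966 in wild-type, against 2703 to 3282 in knockout. Nor did those of 9 epithelial markers, at 43.87 to 47.56, against 10.96 to 24.81. Only 1 of these 9 was above 0 in all libraries of each ventricular group. The other marker sums overlapped in ventricles. The part of the marker sums and the mitochondrial share in the Dsg2 difference was not tested. An antisense gene, Gm16090, shares 330 exon bases with Dsg2. The postnatal effects differed from the E13.5 effect by -0.70 in atria and -0.71 in ventricles (limma adjusted p = 0.999 and 1).

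Dsc2, the desmocollin 2 gene (chromosome 18, 20030633 to 20059554, minus strand), scattered more. Its signal was 213, 202, 153 and 210 in wild-type, against 263, 308, 354 and 202 in knockout E13.5 hearts. Wild-type atria had 225, 547 and 214 and knockout atria 369, 158 and 127, with 300, 384 and 798 in wild-type, against 266, 502 and 291 in knockout ventricles. The log2 fold changes were 0.51 (SE 0.39) at E13.5, -0.61 (SE 0.45) in atria and -0.41 (SE 0.45) in ventricles, and limma's adjusted p was 1 for each. The atrial value moved to -0.17 without wild-type pup 2, and the ventricular one to -0.0016 without ventricular wild-type replicate 3. In contrast to Gja5, Cdh2, Dsp and Pkp2, its direction between chambers was not shared by the pups of a genotype.

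Jup (chromosome 11, 100368958 to 100397763, minus strand) was dominated in atria by the third pair. Wild-type E13.5 hearts had signals of 89.5, 45.2, 41.4 and 61.5, and knockout hearts 37.7, 180, 56.3 and 67.4. Wild-type atria had 61.9, 87.9 and 502, and knockout atria 49.9, 150 and 270. Wild-type ventricles had 126, 94.1 and 149, and knockout ventricles 122, 119 and 61.2. The ventricle minus atrium value of Jup was -0.21 (SE 0.72) in wild-type and -0.39 (SE 0.72) in knockout pups, but 0.56 and 0.47 without the third pair, and none of these was called (limma adjusted p from 0.735 to 0.941). Its genotype differences, 0.33 at E13.5, -0.14 in atria and -0.33 in ventricles, were all smaller than their standard errors.

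No member was called between knockout and wild-type in any of the 3 settings. The same comparisons called 0% of the 18125 genes at E13.5, 0.0276% in atria and 0% in ventricles. At an unadjusted p under 0.05 there were 0 of 9 members at E13.5, against 4.12% of all genes, and 1 of 9 in atria (Dsg2), against 5.32%. In ventricles it was again 1 of 9, Dsg2, against 3.90% of all genes. The genotypes did not overlap for 0 of 9 members at E13.5, where this held for 2.54% of genes. They did not overlap for Gja5 and Dsg2 in atria, 2 of 9 beside 7.91% of genes, and for Gjc1 and Dsg2 in ventricles, 2 of 9 beside 10.5%. The median log2 fold change of the 9 was 0.00 at E13.5, -0.27 in atria and 0.01 in ventricles, where all genes had medians of 0.01, 0.00 and -0.01. In atria 8 of the 9 estimates were negative, with Gjc1 the exception. Those of Gja5, Dsp, Dsg2, Dsc2 and Pkp2 stayed negative when each library was left out. Those of Gja1, Cdh2 and Jup did not, with highest values of 0.87, 0.08 and 0.77. The sexes were uneven at E13.5, where the Y-linked Eif2s3y was above Xist in 1 wild-type and 3 knockout hearts of 4 each. With Xist as a covariate 0 members were called in each of the 3 comparisons.

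**Figure D4:**
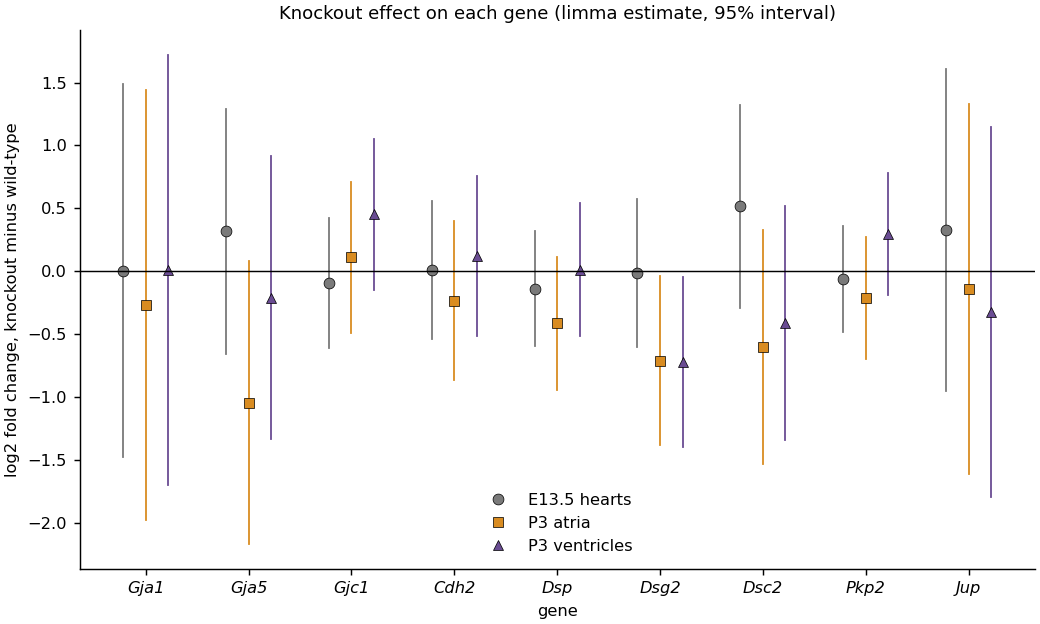
Knockout minus wild-type log2 fold change of the 9 genes in E13.5 hearts (grey circles), P3 atria (orange squares) and P3 ventricles (purple triangles), with points at the limma estimate and lines over its 95% interval. In this fit, which has no replicate block, only the atrial and ventricular intervals of Dsg2 leave out 0, at -0.71 and -0.72, and neither passed the adjusted test.

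Between the chambers, 3 of 9 members had an unadjusted p under 0.05 in wild-type pups (Gja5, Cdh2 and Pkp2), beside 9.87% of all genes. In knockout pups there were 4 of 9 (Gja5, Cdh2, Dsp and Pkp2), beside 9.28%. From E13.5 hearts to ventricles it was 4 of 9 (Gja5, Dsp, Dsg2 and Dsc2), beside 17.4%, and from E13.5 hearts to atria 2 of 9 (Gja5 and Dsg2), beside 19.1%. Dsg2 and Dsc2 were higher in wild-type ventricles than in wild-type E13.5 hearts by 0.93 (SE 0.30) and 1.22 (SE 0.42), which did not pass limma's adjusted test (adjusted p = 0.0855 and 0.103). No member was called where the knockout effects themselves were compared. The share of genes called was 0% for ventricles against atria, 0.00552% for atria against E13.5 hearts and 0% for ventricles against E13.5 hearts. None of the 9 had an unadjusted p under 0.05 in these 3 comparisons, in which 2.59%, 4.99% and 4.02% of all genes did.

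Other genes of the disc were taken from lists fixed by function, which were also chosen with earlier results of these data known. Of 20 other connexin and pannexin genes, 6 could be tested. Gja4, which encodes connexin 37 of the endothelium, had atrial signals of 59.6, 19.9 and 113 without the knockout, against 232, 113 and 460 with it. The difference of 2.14 (SE 0.65) on the log2 scale missed limma's threshold (adjusted p = 0.572). Its ventricular signal was 46.1 to 74.0 in wild-type and 42.5 to 52.2 in knockout pups. The 8 endothelial markers, Gja4 among them, had summed signals of 3576 to 3799 in wild-type and 3543 to 4405 in knockout atria. Gja3, the connexin 46 gene, rose from E13.5 hearts (67.9 ± 33.5, SD, n = 4) to wild-type atria (247 ± 66.7, SD, n = 3), by 1.98 (SE 0.50, limma adjusted p = 0.0216).

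Among 20 tested genes of catenins and adherens junction partners, 0 were called by genotype or between chambers. Ctnna1, the αE-catenin gene, rose with stage from 2252 ± 137 (SD, n = 4) in E13.5 hearts to 4564 ± 397 (SD, n = 3) in wild-type atria and 4753 ± 108 (SD, n = 3) in wild-type ventricles. The log2 fold changes were 1.02 and 1.08 (limma adjusted p = 0.00409 and 0.00207). The related Ctnnal1 also rose, by 1.28 and 1.40 (adjusted p = 0.0483 and 0.0304), the atrial call being lost without the third pair (1.24, adjusted p = 0.0906). No other gene of the list was called in a stage contrast. Ctnna3, which encodes the αT-catenin of heart muscle, was higher in ventricles by 0.85 in wild-type and 1.27 in knockout pups without passing (adjusted p = 0.470 and 0.269).

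Of 5 tested further desmosome genes, Perp, a tetraspan protein gene of desmosomes, rose from 679 ± 175 (SD, n = 4) in E13.5 hearts to 3296 ± 1343 (SD, n = 3) in atria and 3453 ± 672 (SD, n = 3) in ventricles of wild-type animals. Its log2 fold changes were 2.21 and 2.36 (limma adjusted p = 0.000351 and 0.000117), and the difference between genotypes in atria was -0.68 (adjusted p = 0.963). None of the 5 was called by genotype. Ppl, the periplakin gene, was listed at 0, 1.49 and 0 in wild-type ventricles and at 38.7, 8.50 and 61.0 in knockout ventricles, low values whose difference did not pass (adjusted p = 0.949).

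Of 31 tested scaffold and channel genes of the disc, 0 were called by genotype. In both stage contrasts 3 rose: Myzap, which encodes a disc protein bound to desmoplakin, Ank2, the ankyrin B gene, and Xirp2, the gene of an actin-binding protein of the disc. Myzap rose by 1.60 to atria and 2.41 to ventricles, Ank2 by 1.37 and 1.74, and Xirp2 by 5.61 and 6.00, with limma adjusted p from 4.89e-05 to 0.0112. Xirp2 was listed at 37.3, 57.1, 2.55 and 0 in wild-type E13.5 hearts. Wild-type atria had 716, 685 and 199.5 and wild-type ventricles 610, 250 and 1418. The size of its change therefore depends on values near 0 and on the 1 added to each value. From E13.5 hearts to atria the 1 gene that fell was Bves (-0.97, adjusted p = 0.0315), and to ventricles it was Synm (-1.99, adjusted p = 0.0298). Without the third atrial pair Bves was no longer called (-0.81, adjusted p = 0.0781). Ank2 averaged 999 ± 219 (SD, n = 3) in wild-type atria, against 547 ± 140 (SD, n = 3) in knockout atria. This difference of -0.88 on the log2 scale missed limma's threshold (adjusted p = 0.639). Kcna5, a potassium channel gene, was 39.7, 39.8 and 50.9 in wild-type atria, against 27.0, 0 and 9.58 in knockout atria (adjusted p = 0.626).

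Among 8 tested cadherin genes other than Cdh2, 0 were called by genotype or chamber. From E13.5 hearts to ventricles, Cdh11 fell by 1.46 and Cdh3 fell by 3.33, while the endothelial Cdh5 rose by 1.28 (limma adjusted p = 0.00353, 0.00493 and 0.00913). To atria the 1 called gene was Cdh13, by 2.40 (limma adjusted p = 0.0208), and this call rested on the third atrial pair. Its signal was 867, 712 and 4517 in wild-type atria, against 118 to 477 at E13.5, and without that pair the difference was 1.56 (adjusted p = 0.0656). Of 15 transcription factors known to act on connexin genes of the heart, Tbx5, which encodes a T-box activator of Gja5, was called between the chambers in both genotypes. Its signal was 738 ± 226 (SD, n = 3) in wild-type atria and 81.4 ± 20.1 (SD, n = 3) in wild-type ventricles, a log2 difference of -3.15 (SE 0.38, limma adjusted p = 0.0282), and it was -2.87 (adjusted p = 0.0347) in knockout pups. Without the third atrial pair it was -2.74 and -2.81, no longer called (adjusted p = 0.118 and 0.0797). Irx4, a ventricular factor, was listed at 0 in 5 of 6 atrial libraries, at 26.5 in that of wild-type pup 2, and at 120 to 224 in ventricles, and was called in knockout pups (limma adjusted p = 0.0380, but 0.138 without the third atrial pair). None of the 15 was called by genotype. Tbx3, a factor of the conduction system and 1 of its 7 markers above, had an atrial log2 fold change of -2.12 (SE 0.95, limma adjusted p = 0.903).

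The genes whose pattern over the 20 libraries was most like that of a member were taken from 9063 genes at or above the median level, by Pearson correlation of log2(value + 1). These values are descriptions, since libraries of a group share tissue and stage. For Gja5 they were Myl7 (0.891), Bmp10 (0.885), Tbx5 (0.862), Igfbp5 (0.849) and Tmem108 (0.836), the first 2 being marker genes of the atria. Over deviations from the group means the same 5 genes had lower correlations with Gja5, from 0.25 (Igfbp5) to 0.579 (Bmp10). For Dsp they were Lrrc39 (0.932), Sdha (0.922), Gm10053 (0.920), Acat1 (0.920) and Cycs (0.910), of which Sdha, Acat1 and Cycs encode mitochondrial proteins, and within groups the 5 values were 0.727 to 0.898. Gm10053 is a copy of Cycs, with which it may share reads. For Gja1 the leading genes were Zfp367 (0.982), Nipsnap2 (0.977), Ahnak (0.964), Cdkn1b (0.963) and Fli1 (0.959). Their correlations with Gja1 were 0.968 to 0.988 within groups. Over the 18 libraries without the third atrial pair, not taken within groups, they were 0.840 to 0.929. All within-group values of this paragraph include the third atrial pair, in which Gja1 lay far below the other atrial libraries. No within-group value without that pair is given. Among the members themselves, Cdh2 and Dsp were the most alike after Gja1 and Cdh2, with 0.882 over 20 libraries, 0.858 over deviations from the group means and 0.874 without the third atrial pair. Gja1 and Cdh2 reached 0.884 over all libraries and 0.764 without that pair. Gja5 ran opposite to Pkp2 at -0.799 over 20 libraries, but at -0.0697 over deviations from the group means.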

How the data were processed

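RNA was extracted with the RNeasy Micro kit and made into SMART-Seq2 libraries, per the labels' protocols. Per the submitters' processing notes the tools were bcl2fastq 2.2, STAR 2.5.1 and DESeq2 with the build mm10, in no stated role or order. How reads were counted and on which annotation is not given in the sources used here. Each value of the deposited table (26440 genes, 20 libraries) is a normalized signal, not a count, and was used on its linear scale as it stands. For processed pseudogenes, TEC, snoRNA and miRNA genes at least 99.7% of values were whole multiples of 1 step per library (within a relative 0.001), but over all genes only 49.4 to 67.1% were, so no count test was used. The sum divided by this step put the depth at 5138360 to 20669494 estimated reads per library, with 18357 to 23457 genes above 0. PCR copies cannot be told from molecules here, so read estimates speak only for counting error. No library was identical to another.

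Tests were run on log2(value + 1) by limma 3.58.1 under R 4.3.3 (mean-variance trend, two-sided, Benjamini-Hochberg over all genes, called under 0.05), after keeping genes of at least 10 in at least 3 libraries. Genotype and stage contrasts came from 1 fit of the 6 groups (14 residual and 6.68 prior degrees of freedom). Chamber contrasts came from the 12 P3 libraries with a term per pup (4 residual and 4.59 prior degrees of freedom). Fold changes on this scale understate changes of low genes. Positions, exon lengths and GC content came from GENCODE vM21 on GRCm38 and promoters from RefSeq on GRCm38.p6. The scripts were tested on simulated data.

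The members and gene lists were chosen with earlier results of these data known. Named genes were the 9 members, Creld1, genes of the fixed lists that were called (at most 4 per list and comparison) or otherwise the 2 with the smallest p, defining markers, and the 5 genes most like Gja5, Gja1 and Dsp. Overlapping genes, Gm10053 and the sex-linked genes were named outside this rule.

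The labels give same-numbered knockout and wild-type libraries 1 common litter and day of preparation, which makes them pairs. Deviations from group means of same-numbered libraries correlated at 0.212, 0.255 and 0.638 in atria, 0.0200 to 0.0658 in ventricles and -0.0159 to 0.0159 at E13.5. At E13.5 pairs 2 and 3 come from 1 litter, and pair 4 dates from 2018, not 2016. With the replicate block the calls over all genes went from 5 to 30 in atria and from 0 to 2 in ventricles, and no member was called. Alternatives were other pseudocounts, filters, scalings, library weights, GC adjustment, the block and left-out libraries.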

Additional observations from a re-analysis of the deposited data

How the results depend on the processing

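The counts of members called between knockout and wild-type, and between the genotype effects, were 0 in every alternative run, the replicate block included. With the block the standard error of Gja1 at E13.5 was 0.16 in place of 0.71, from a spread shared with the atrial and ventricular pairs. In wild-type pups the count between chambers went from 0 to 1 (Gja5) with library weights, with GC adjustment and with no replicate block. In knockout pups it went to 1 (Gja5) with GC adjustment and to 4 (Gja5, Cdh2, Dsp and Pkp2) with no replicate block. From wild-type E13.5 hearts to ventricles the count of 1 went to 3 with library weights (Gja5, Dsp and Dsg2) and to 3 without the third atrial pair (Gja1, Gja5 and Dsp), and ranged from 0 to 2 when each library was left out. It was 0 without ventricular wild-type replicate 1 or 3. To atria the count of 1 went to 0 with no filter, upper quartile scaling, equal sum scaling, library weights, GC adjustment, without the third atrial pair and without the doubted knockout libraries. It ranged from 0 to 1 when each library was left out, being 0 without E13.5 wild-type replicate 1, 2 or 4, any E13.5 knockout replicate, atrial wild-type replicate 1 or 3, atrial knockout replicate 1 or ventricular knockout replicate 2. The cause of these changes was not tested.

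Of 2862 recomputed values of single members, 6 reversed, 20 lost and 13 gained a call, where a sign was read only for estimates above their standard error. With equal sum scaling, which moved the median of all genes by -0.54 from E13.5 hearts to ventricles, Gjc1 between wild-type chambers was -0.22, and Cdh2 and Pkp2 from E13.5 hearts to ventricles were -0.11 and -0.15. Dsc2 between wild-type chambers was -0.047 without the third atrial pair, the same without atrial or ventricular wild-type replicate 3 alone, and ranged from -0.047 to 1.15 when each library was left out. GC adjustment, the exclusion of the third atrial pair and the fits that combine either with the block were chosen after seeing the data. So were the list genes and member intervals without that pair, and the mean over both P3 tissues.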

Other observations

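Dsg2 was lower in knockout in both P3 chambers, and the 2 tissues of a pup were therefore averaged and the pups compared, a contrast added after these values had been seen. The log2 fold change of Dsg2 was -0.72 (SE 0.24, 95% interval -1.25 to -0.18), with an unadjusted p of 0.0138 by limma, rank 282 of 18125 genes, and an adjusted p of 0.884. In this contrast 0 genes were called over the whole table and 919 had an unadjusted p under 0.05. The other 8 members lay between -0.63 (Gja5) and 0.28 (Gjc1), with limma adjusted p of 1 for each.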
